A study of Homo sapiens with 24 samples.

Results

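The genes described here are the 7 hexose phosphomutase genes PGM1, PGM2, PGM2L1, PGM3, PGM5, PMM1 and PMM2, of 58721 genes counted in the series. They were found by the gene identifiers that GENCODE 29 pairs with these symbols, and the family was chosen because PGM2L1 was higher in every LN-229 knockdown. The LN-229 values of PGM2L1 were thus selected on these libraries and are given as a description, with no test. The other 6 genes were chosen by family membership, and no value of the 293T cells entered the choice, so these were tested. All 7 genes passed the filter on low counts in both cell lines.

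The series is RNA-seq of human cell lines, made to ask how ZFX, an X-linked zinc finger protein that activates transcription, affects gene expression. LN-229 is a glioblastoma line, labelled wild type in genotype. It received a control siRNA (siControl), siRNA against ZFX (siZFX), siRNA against ZNF593, another zinc finger protein (siZNF593), both siRNAs together (siZFX siZNF593, the double knockdown), or control siRNA again (siControl_2). The labels treat both sets of controls alike, and siControl_2 is tied to the double knockdown by name only, not by a treatment label. The second line is 293T, a human embryonic kidney line. ZFX and its close paralog ZNF711 are knocked out in every group, controls included (DKO cells). DKO cells were transfected with the empty vector pCMV6, with FLAG-tagged wild-type ZFX (wtZFX), or with a FLAG-tagged ZFX construct named ZFX12_13, whose alteration the labels do not describe. The labels do not say whether the DKO line is 1 clone. Each of the 8 groups has 3 libraries, called biological replicates without a statement that they came from separate cultures, so the spread may be technical in part.

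Phosphohexomutases move a phosphate group from one carbon of a sugar to another and thereby sort glucose, mannose and acetylglucosamine between glycolysis, glycogen and the nucleotide sugars used for glycosylation. PGM1 joins glucose phosphate of glycolysis to that of glycogen and galactose metabolism, PGM3 acts on acetylglucosamine phosphate on the way to UDP-GlcNAc, and PMM1 and PMM2 make the mannose phosphate needed for GDP-mannose. PGM2 acts mainly on ribose and deoxyribose phosphates. Its close relative PGM2L1 makes glucose bisphosphate, a cofactor that keeps phosphohexomutases phosphorylated, and is best known from brain. PGM5, also called aciculin, is a structural protein of cell adhesions that has lost most enzyme activity.

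Sequence just upstream of 3 members is shown because PGM1 and PMM1 both fell with siZFX and rose with each construct relative to the vector, and PGM2L1 had the opposite direction in these comparisons; between the constructs PGM1 and PMM1 differed in opposite directions. AGGCCT, the core of the sequence that ZFX is known to bind, was searched in RefSeq windows of GRCh38.p14 that reach from 250 bases before to 50 after a start site. It equals its own reverse complement, so 1 search covers both strands. Of 35116 windows 10.9% held it, as did 13.9% of 14896 protein-coding genes in any window. Windows were available for 6 of the 7 members, and PGM1 and PGM3 had more than 1 each, so more places for a match. PGM1 alone had a match, shown in capitals. It lay in the first of the PGM1 windows, beginning 156 bases before the start site of that window, and the other PGM1 windows held none. The stretches below stop where a GENCODE 29 exon begins, read 5′ to 3′ on the strand of the gene, and hold no AGGCCT in PGM2L1 or PMM1, which says only that these letters are not in the window.
PGM1, chr1:63593161-63593275, plus strand: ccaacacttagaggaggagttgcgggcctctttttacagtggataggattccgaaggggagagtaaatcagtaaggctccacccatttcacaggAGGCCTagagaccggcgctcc
PGM2L1, chr11:74398474-74398683, minus strand: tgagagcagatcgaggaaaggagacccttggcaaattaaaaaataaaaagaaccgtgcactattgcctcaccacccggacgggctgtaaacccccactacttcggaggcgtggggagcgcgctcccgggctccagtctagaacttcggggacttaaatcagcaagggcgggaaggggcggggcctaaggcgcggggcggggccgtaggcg
PMM1, chr22:41589891-41590090, minus strand: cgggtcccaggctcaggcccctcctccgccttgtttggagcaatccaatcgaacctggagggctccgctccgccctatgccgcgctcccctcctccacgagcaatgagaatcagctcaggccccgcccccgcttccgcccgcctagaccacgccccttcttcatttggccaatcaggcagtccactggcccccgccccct

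Gene counts per library ran from 16223239 to 30159260, and 17684 genes were tested in LN-229 and 19376 in DKO cells. ZFX stood at 50.5 CPM (counts scaled to a common library total) in siControl and 16.0 in siZFX, and at 53.6 in siControl_2 and 26.7 in the double knockdown. In DKO cells it stood at 224 with pCMV6, so reads on the ZFX gene were still counted in the knockout, 15534 with wtZFX and 18895 with ZFX12_13. ZNF593, from the stranded counts, fell from 29.4 CPM to 2.03 in siZNF593 libraries and was 30.1 against 2.78 in the pair of the double knockdown. The markers CD44, AXL, VIM, SOX10 and NES were high in LN-229, and EGFR was higher there than in DKO cells (91.1 and 38.3 CPM), but GFAP was no higher, at 4.83 and 5.05 CPM. LIN28B, NEFM, PAX2 and EYA1 were higher in the 293T libraries than in LN-229. LYPD1 and CDH2, listed as 293T markers, went the other way, at 80.8 and 261 CPM in LN-229 and 0.286 and 174 in DKO cells. Replicate 3 of the double knockdown stood apart, with a mean correlation of 0.969 with its own group over 11131 genes, against at least 0.981 for every other library, so the members' values in the double knockdown, its list counts and the list genes named there are also given without it.

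PGM2L1 (chromosome 11, 74330318 to 74398473, minus strand) had 21.4, 23.4 and 24.6 CPM in the siControl libraries and 113, 114 and 112 CPM in the siZFX libraries. With siZNF593 it had 59.5, 64.0 and 67.4 CPM. The lowest knockdown library was thus above the highest control library in both pairs. With both siRNAs it had 77.1, 82.0 and 103 CPM, against 19.3, 18.2 and 19.7 in siControl_2, and the highest of these 3 was the replicate 3 that stood apart. On the log2 scale the difference was 2.29 (SE 0.10) for siZFX, 1.46 (SE 0.10) for siZNF593 and 2.20 (SE 0.10) for the double knockdown, or 2.07 without replicate 3. These are 4.88-, 2.75- and 4.58-fold. The first 2 share the siControl libraries.

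The log2 difference of the double knockdown from its control minus that of siZFX was -0.09 for PGM2L1 (SE 0.14, 95% interval -0.36 to 0.17). It was -0.22 without replicate 3 and 0.019 without replicate 1 of the double knockdown. Against the siZNF593 effect it was 0.74 (SE 0.14) larger, or 0.62 without replicate 3. The difference from the sum of both single effects was -1.55 (SE 0.20), and -1.67 without replicate 3. ZFX itself was less reduced in the double knockdown (53.6 to 26.7 CPM) than with siZFX (50.5 to 16.0 CPM). The effects are thus not compared at equal loss of ZFX, and the bearing of that on PGM2L1 was not tested. The control sets differed for PGM2L1 as well, with siControl_2 at -0.28 (SE 0.10) on the log2 scale relative to siControl, so with siControl in place of siControl_2 the double knockdown stood at 1.92, its difference from the siZFX effect at -0.37, from the siZNF593 effect at 0.46 and from the sum at -1.83. Between the single knockdowns, siZFX stood 0.83 (SE 0.09) above siZNF593, and their libraries did not overlap.

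In DKO cells PGM2L1 fell with both ZFX constructs. It had 37.0, 35.7 and 35.2 CPM with pCMV6, 27.5, 27.4 and 25.0 CPM with wtZFX, and 27.0, 29.8 and 27.1 CPM with ZFX12_13. Every construct library was below every vector library. The log2 change was -0.44 (SE 0.07, adjusted p = 1.51e-05, edgeR's quasi-likelihood test with Benjamini-Hochberg adjustment over all genes) for wtZFX and -0.36 (SE 0.07, adjusted p = 0.000215) for ZFX12_13. Both share the pCMV6 libraries. The constructs overlapped and differed by 0.07 (95% interval -0.07 to 0.21, adjusted p = 0.55). Ordered by mean CPM, siControl_2 came first at 19.1 ± 0.8 (SD, n = 3), then siControl at 23.2 ± 1.6, wtZFX at 26.6 ± 1.4, ZFX12_13 at 27.9 ± 1.6, pCMV6 at 36.0 ± 1.0, siZNF593 at 63.6 ± 4.0, the double knockdown at 87.4 ± 13.8 and siZFX at 113 ± 0.6. Only wtZFX and ZFX12_13 overlapped among neighbours in this order, and the 2 cell lines were scaled separately.

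**Figure D1:**
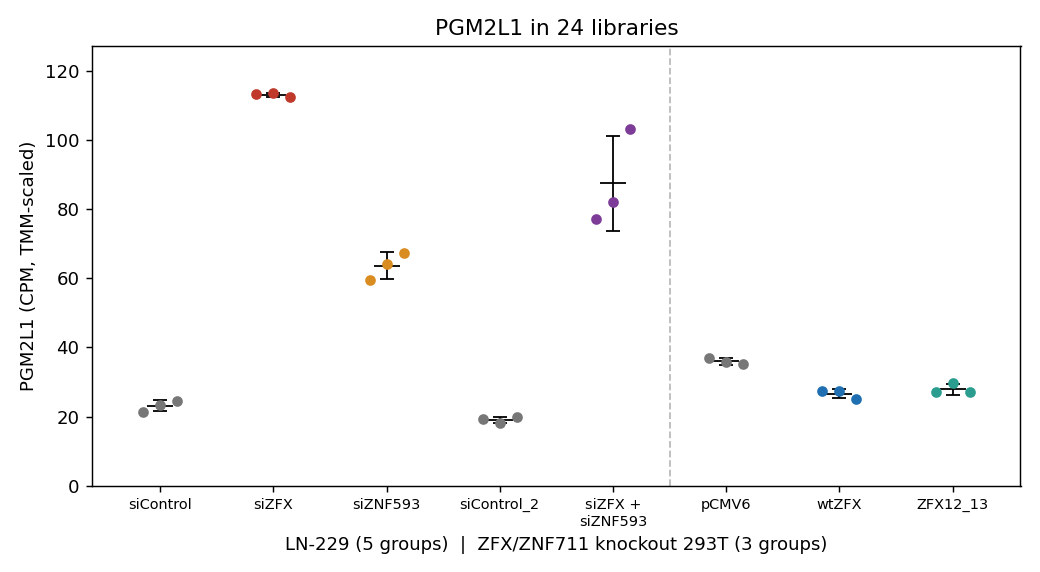
PGM2L1 in CPM (vertical axis) for each of the 24 libraries (points) by group, with the mean and SD of 3 libraries in black and a dashed line between the cell lines. The 9 knockdown libraries lie between 59.5 and 114 CPM, above all 6 LN-229 controls, and the 6 libraries with a ZFX construct lie below the 3 with pCMV6.

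PGM2 (chromosome 4), the relative that acts on pentose phosphates, had smaller differences in the same directions as PGM2L1. Against a control it was called only in the double knockdown and with ZFX12_13. It had 20.0, 22.6 and 23.8 CPM in siControl, 27.4, 26.0 and 28.1 CPM in siZFX and 24.3, 25.5 and 23.0 CPM in siZNF593. The log2 difference was 0.29 (SE 0.12, adjusted p = 0.0607) for siZFX and 0.13 (SE 0.12, adjusted p = 0.455) for siZNF593, and neither passed the test. In the double knockdown it rose, with 27.5, 26.9 and 37.3 CPM against 20.3, 17.5 and 18.8 in siControl_2, a log2 change of 0.70 (SE 0.12, adjusted p = 6.22e-05). Replicate 3 was again the highest, and without it the change was 0.53 and still called. With siControl in place of siControl_2 the change was 0.47, also called. In DKO cells PGM2 had 54.9, 56.2 and 57.3 CPM with pCMV6, 52.8, 52.2 and 55.8 with wtZFX and 49.4, 46.8 and 51.8 with ZFX12_13. The log2 difference was -0.06 (SE 0.06, adjusted p = 0.396) for wtZFX, and PGM2 fell by 0.19 (SE 0.06, adjusted p = 0.0163) with ZFX12_13. That call was lost without replicate 3 of pCMV6 (-0.17), without replicate 2 of ZFX12_13 (-0.15), with GC and length offsets (-0.11) and in 1 stranded column alone (-0.16).

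Per kilobase of exon, the ratio of PGM2L1 to PGM2 was 0.449, 0.436 and 0.434 in siControl and 0.399, 0.436 and 0.442 in siControl_2. It was 1.73, 1.84 and 1.68 in siZFX, 1.03, 1.05 and 1.23 in siZNF593, and 1.18, 1.28 and 1.16 in the double knockdown. PGM2 counts thus exceeded PGM2L1 counts per length in all 6 control libraries and PGM2L1 exceeded PGM2 in all 9 knockdown libraries. Replicate 3 of the double knockdown, high for both genes, had the lowest ratio of its group. In DKO cells the mean ratio was 0.269 ± 0.013 (SD, n = 3) with pCMV6, 0.209 ± 0.018 with wtZFX and 0.239 ± 0.025 with ZFX12_13. As PGM2L1 was chosen on its level in LN-229, the ratio there is a description.

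**Figure D2:**
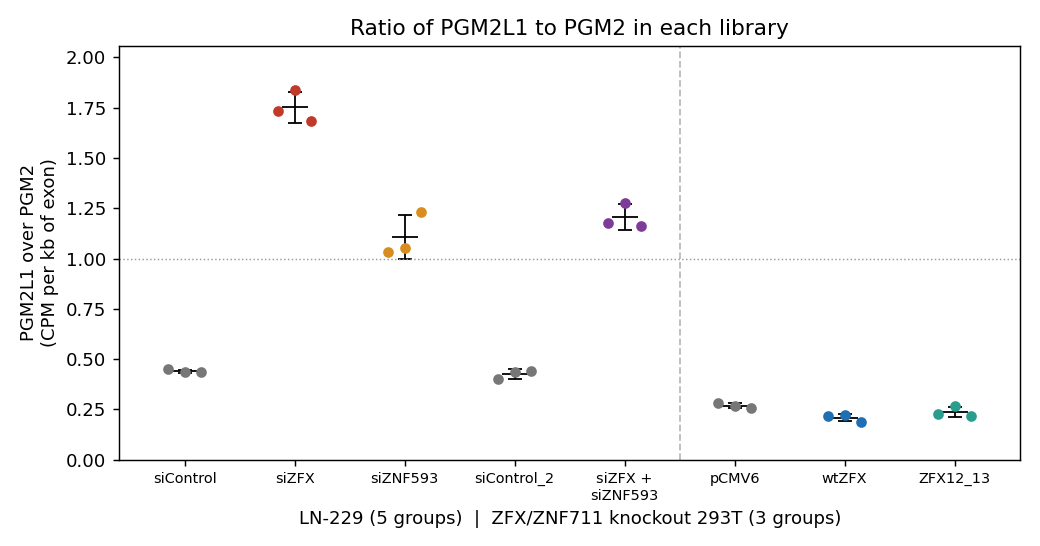
Ratio of PGM2L1 to PGM2, each in CPM per kilobase of exon (vertical axis), in each library (points) by group, with mean and SD in black and a dotted line at equal levels. The 9 LN-229 knockdown libraries lie between 1.03 and 1.84, above the line, and all control and DKO libraries lie below it.

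PGM1 (chromosome 1), the main glucose phosphomutase, fell with siZFX and rose with both ZFX constructs, the opposite of PGM2L1. It had 97.2, 95.9 and 92.9 CPM in siControl and 79.2, 79.6 and 75.2 CPM in siZFX, with no overlap, a log2 change of -0.29 (SE 0.07, adjusted p = 0.00196). With siZNF593 it had 94.8, 98.5 and 92.6 CPM, which overlapped the controls, a log2 difference of 0.00 with a 95% interval of -0.13 to 0.13 (adjusted p = 0.997). The double knockdown had 91.9, 94.5 and 92.3 CPM against 134, 117 and 128 in siControl_2, a log2 change of -0.44 (SE 0.07, adjusted p = 1.64e-05), or -0.43 without replicate 3. The control sets differed for PGM1 too: siControl_2 was 0.41 (SE 0.07, adjusted p = 0.000203) higher than siControl. Against siControl the double knockdown differed by -0.04 and was not called, and against all 6 controls as 1 group it differed by -0.25 and was called.

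In DKO cells PGM1 had 155, 157 and 168 CPM with pCMV6, 173, 184 and 179 with wtZFX and 238, 234 and 231 with ZFX12_13, 3 ranges that did not overlap. The rise was 0.16 (SE 0.05, adjusted p = 0.0112) on the log2 scale for wtZFX and 0.55 (SE 0.05, adjusted p = 2.71e-09) for ZFX12_13. ZFX12_13 stood 0.39 (SE 0.05, adjusted p = 2.2e-06) above wtZFX. The smaller rise lost its call without replicate 1 or replicate 2 of pCMV6, at 0.14 in both cases.

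PMM1 (chromosome 22) and PMM2 (chromosome 16) make the same mannose phosphate. PMM1 was called in 4 of the 5 comparisons with a control and PMM2 in none, though the difference between these isozymes was not tested. PMM1 had 19.9, 20.0 and 24.4 CPM in siControl and 16.2, 17.1 and 13.4 CPM in siZFX, a log2 change of -0.46 (SE 0.12, adjusted p = 0.00515). Without replicate 3 of siControl, its highest control library, the change was -0.35 and not called. It had 19.1, 18.4 and 19.2 CPM with siZNF593, a difference of -0.18 (SE 0.12, adjusted p = 0.299). In the double knockdown it fell to 15.4, 13.2 and 13.4 CPM from 23.9, 23.0 and 20.0 in siControl_2, by 0.67 on the log2 scale (SE 0.12, adjusted p = 0.000111), and by 0.64 without replicate 3. The control sets did not differ detectably for PMM1 (0.06, SE 0.12, adjusted p = 0.83), and against siControl the double knockdown was still called.

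With constructs PMM1 rose in DKO cells, from 9.64, 9.76 and 9.24 CPM with pCMV6 to 15.8, 16.8 and 15.9 with wtZFX and 14.2, 10.8 and 11.3 with ZFX12_13. Neither construct group overlapped the vector group. The log2 change was 0.76 (SE 0.10, adjusted p = 1.42e-06) for wtZFX and 0.34 (SE 0.11, adjusted p = 0.0146) for ZFX12_13, and the latter was 0.42 (SE 0.10, adjusted p = 0.00411) below wtZFX. The rise with ZFX12_13 lost its call without replicate 3 of pCMV6 (0.32), without replicate 1 of ZFX12_13 (0.21), with GC and length offsets (0.23) and in 1 stranded column alone (0.23). PMM2, the isozyme mutated in the most common congenital disorder of glycosylation, stood between 9.63 and 14.1 CPM in all 24 libraries. None of its 5 differences from a control passed the test. The largest was -0.30 (SE 0.13, adjusted p = 0.105) with siZNF593, whose 3 libraries were below all 3 controls. In the double knockdown it was 0.02 (SE 0.13, adjusted p = 0.906), or 0.09 without replicate 3.

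PGM3 (chromosome 6), which serves UDP-GlcNAc, rose with both constructs in DKO cells. It had 39.0, 41.7 and 40.5 CPM with pCMV6, 54.8, 53.6 and 51.2 with wtZFX and 50.8, 51.0 and 47.9 with ZFX12_13. Every construct library was above every vector library, with log2 changes of 0.40 (SE 0.06, adjusted p = 8.07e-06) and 0.31 (SE 0.06, adjusted p = 0.000312). In LN-229 it had 55.5, 50.9 and 52.2 CPM in siControl, 46.0, 42.6 and 48.6 in siZFX and 51.2, 62.2 and 55.1 in siZNF593. The difference was -0.21 (SE 0.09, adjusted p = 0.08) for siZFX and 0.09 (SE 0.09, adjusted p = 0.517) for siZNF593. The double knockdown had 50.2, 52.5 and 60.3 CPM against 59.9, 60.5 and 60.6, a difference of -0.15 (SE 0.09, adjusted p = 0.187). Without its replicate 3, the only one near the controls, the change was -0.23 and called.

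PGM5 (chromosome 9), the adhesion protein, was at the lowest level of the family, between 0.52 and 2.91 CPM in LN-229 and between 4.18 and 8.42 CPM in DKO cells. It rose with wtZFX, from 4.84, 4.18 and 4.49 CPM with pCMV6 to 8.10, 8.42 and 6.18, a log2 change of 0.74 (SE 0.14, adjusted p = 0.00014). With ZFX12_13 it had 4.19, 4.75 and 4.50 CPM, which overlapped the vector group, and it was 0.75 (SE 0.15, adjusted p = 0.000497) below wtZFX. In LN-229 it had 1.86, 1.17 and 1.72 CPM in siControl, 0.97, 1.11 and 0.52 in siZFX and 2.91, 2.07 and 2.02 in siZNF593. Neither knockdown passed the test against siControl, at -0.86 (SE 0.39, adjusted p = 0.104) and 0.56 (SE 0.37, adjusted p = 0.289). The double knockdown had 2.23, 1.70 and 0.78 CPM against 2.12, 1.35 and 1.59, a difference of -0.10 (SE 0.37, adjusted p = 0.855), and 0.22, not called, without replicate 3. The counts behind these LN-229 values are low, 541 in all over 15 libraries.

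**Figure D3:**
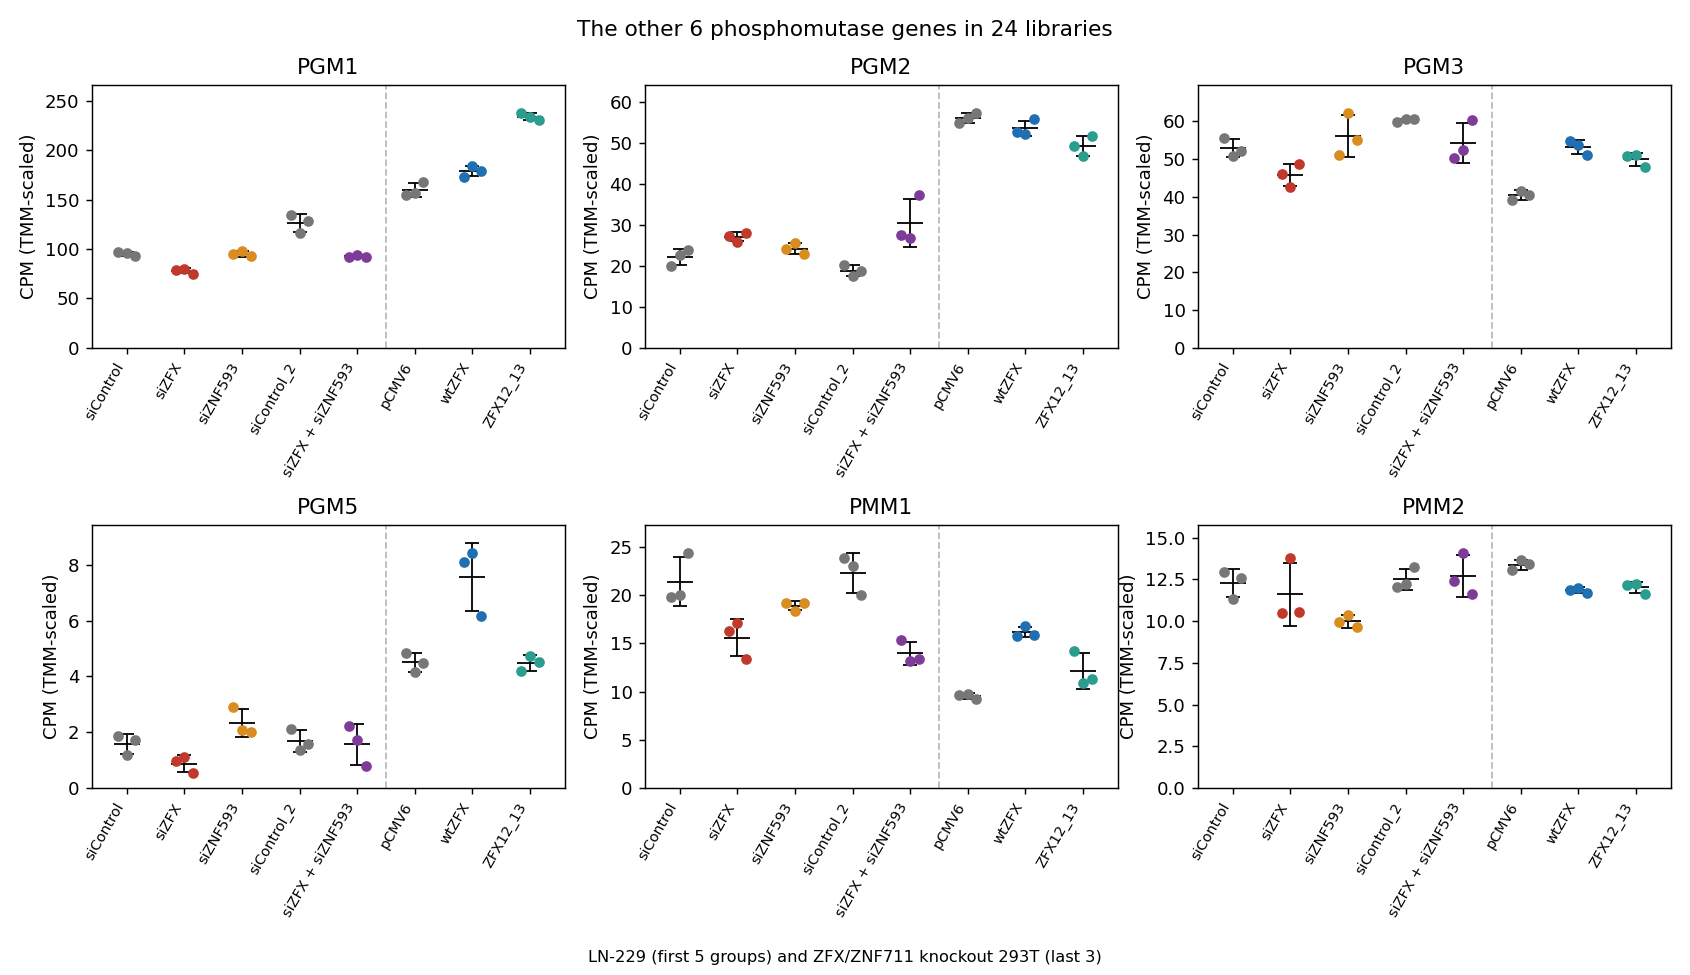
CPM (vertical axes, each from 0) of the other 6 members in each library (points) by group, with mean and SD of 3 libraries in black and a dashed line between the cell lines. PGM1 and PMM1 are lower with siZFX than with siControl and higher with wtZFX than with pCMV6, and PMM2 stays between 9.63 and 14.1 CPM.

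Counted over comparisons, 2 of the 6 tested members fell with siZFX (PGM1 and PMM1) and none rose, where 17.1% of all 17684 tested genes were called lower and 13.8% higher. With siZNF593 none of 6 was called by edgeR or by DESeq2, and 1, PMM2, was at an unadjusted p under 0.05, where 12.2% of all genes were called higher and 14.6% lower. The double knockdown had 1 of 6 higher (PGM2) and 2 lower (PGM1 and PMM1), where 17.6% of all genes were called higher and 20.6% lower. Without replicate 3, PGM3 was called lower as well, which made 4 of 6. The shares of all genes include that replicate and those without it are not reported here, so this count has no background. Between the control sets 1 of 6, PGM1, was called, where 5.43% of all genes were higher and 4.88% lower in siControl_2. In DKO cells 4 of 7 members rose with wtZFX (PGM1, PGM3, PGM5 and PMM1) and PGM2L1 fell, where 23.2% of 19376 genes were called higher and 19.2% lower. With ZFX12_13, 3 of 7 rose (PGM1, PGM3 and PMM1) and 2 fell (PGM2 and PGM2L1), where 20.9% were called higher and 15.7% lower. With so few members these shares say little against the background, and the construct comparisons share their control libraries.

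**Figure D4:**
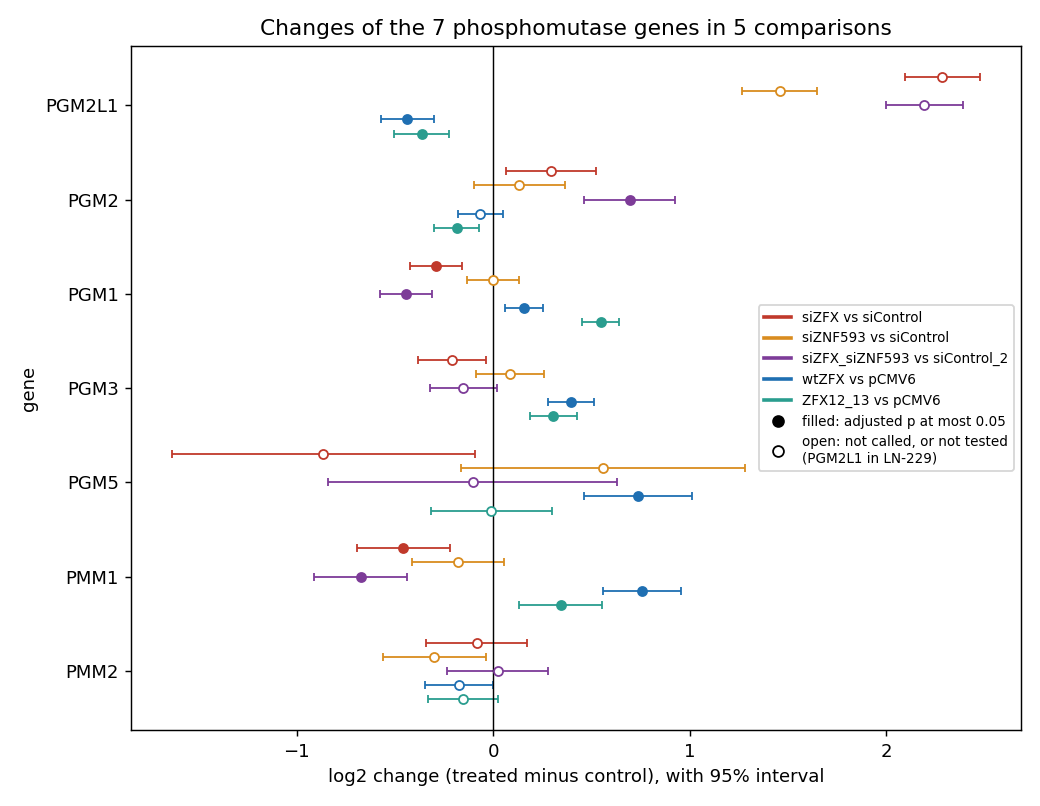
Log2 change (horizontal axis) of each member in 5 comparisons, as points with 95% intervals from the normal distribution. Points are filled where the adjusted p is at most 0.05 and open where it is not or where no test applies (PGM2L1 in LN-229). PGM2L1 lies at 1.46 to 2.29 in the knockdowns and at -0.44 and -0.36 with the constructs, and PGM1 and PMM1 lie below 0 with siZFX and above 0 with both constructs.

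Knockdowns were also set against each other. In siZFX relative to siZNF593, 3 of 6 members were lower and none higher: PGM1 by 0.29 (SE 0.07, adjusted p = 0.00149), PGM3 by 0.29 (SE 0.09, adjusted p = 0.0102) and PGM5 at 2.69-fold lower (adjusted p = 0.00547), where 20.7% of all genes were called lower and 19.8% higher. The PGM3 call was lost without replicate 2 of either group. The effect of the double knockdown differed from that of siZNF593 for 3 of 6 members: PGM2 was 0.56 (SE 0.17, adjusted p = 0.0226) higher, PGM1 -0.44 (SE 0.10, adjusted p = 0.00244) and PMM1 -0.50 (SE 0.17, adjusted p = 0.0485), where 7.97% of all genes were called higher and 8.6% lower. Without replicate 3 of the double knockdown these were 0.41, -0.43 and -0.46, all called, and PGM3 was called at -0.31. The shares over all genes here include that replicate. The PGM2 call was lost without replicate 3 of siControl, replicate 3 of siZNF593 or replicate 2 of siControl_2, and with 1 stranded column alone or with all 6 controls as 1 group. That of PGM1 was lost with siControl alone or all 6 controls as the control, at -0.04, and that of PMM1 under most alternatives. Between the double and siZFX effects none of 6 was called by edgeR or DESeq2, with 1, PGM2, at an unadjusted p under 0.05, where 8.76% of all genes were called higher and 8.97% lower. From the sum of the single effects none of 6 differed by either tool, with 0 at an unadjusted p under 0.05, where 3.85% were called higher and 1.81% lower. Between the constructs 3 of 7 differed, PGM1 higher and PGM5 and PMM1 lower in ZFX12_13, where 9.73% of all genes were called higher and 10.6% lower.

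Levels can be compared between members only per length. In siControl PGM1 led at 22.6 CPM per kilobase of exon, followed by PGM3 at 7.21, PGM2 at 5.98, PMM1 at 4.21, PGM2L1 at 2.63, PMM2 at 1.61 and PGM5 at 0.213. In siZFX PGM2L1 stood second at 12.8, behind PGM1 at 18.5. In pCMV6 cells PGM1 led at 38.0, followed by PGM2 at 15.2, PGM3 at 5.51, PGM2L1 at 4.08, PMM1 at 1.88, PMM2 at 1.75 and PGM5 at 0.607. Exons of all isoforms were joined for the length, so levels per kilobase are approximate. These levels are from the unstranded counts, which leave out more reads for some members than for others. In LN-229 the stranded columns summed held 186% of the unstranded counts for PMM1 and PMM2, and 100% for PGM2 and PGM2L1. The order of members close in level may thus change with the columns counted.

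Counting bears unequally on the members, since the unstranded counts leave out reads that meet exons of more than 1 gene. Both stranded columns summed held 186% of the unstranded counts of PMM1 and PMM2 in LN-229, 155% for PGM3 and 118% for PGM1, and 100% for PGM2 and PGM2L1. PMM1 shares 172 exon bases with CSDC2, PGM3 shares 1087 with DOP1A, and PMM2 shares 453 with TMEM186 and 1227 with AC022167.2. PGM1 shares 197 with ITGB3BP and PGM2L1 shares 137 with the antisense gene AP001372.1. In unstranded libraries reads of such pairs cannot be told apart. With the stranded columns summed, the changes of PMM1 were -0.45 for siZFX, -0.67 for the double knockdown, 0.66 for wtZFX and 0.29 for ZFX12_13, all called as before. PGM3 with siZFX then passed the test, at -0.24, as did PMM2 with wtZFX, at -0.22. Of the partners, DOP1A fell with siZFX (-0.88, adjusted p = 4.39e-05) and rose with siZNF593 (0.42, adjusted p = 0.0251). ITGB3BP was 0.35 higher in siControl_2 than in siControl (adjusted p = 0.0377), the direction of PGM1 there. ITGB3BP was called lower with wtZFX (-0.30) and ZFX12_13 (-0.20), where PGM1 rose. TMEM186 rose with siZNF593 (0.49, adjusted p = 0.0173), where PMM2 was not called. CSDC2 rose with wtZFX (0.27, adjusted p = 0.0434), as PMM1 did. The part of the partners in the members' values was not tested.

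The genes of sugar metabolism around the family were followed in 5 lists written from general knowledge. Their counts stand beside the shares of all genes called, which were 13.8% higher and 17.1% lower for siZFX, 12.2% and 14.6% for siZNF593, 17.6% and 20.6% for the double knockdown, 23.2% and 19.2% for wtZFX, and 20.9% and 15.7% for ZFX12_13. The median log2 difference over all genes was 0.02, 0.02, 0.01, -0.02 and -0.01 in the same order. These shares and medians include replicate 3 of the double knockdown, so list counts without it have no matching share. No list was tested against other genes, and no difference between the lists was tested. In the hexose phosphate and glycogen list, 4 of 22 tested genes rose and 9 fell with siZFX (median log2 difference -0.14, against 0.02 over all genes), 1 rose and 5 fell with siZNF593 (median -0.10, against 0.02), and 3 rose and 9 fell in the double knockdown (median -0.21, against 0.01), or 4 and 8 without its replicate 3. With the constructs 11 of 21 rose and 4 fell with wtZFX (median 0.34, against -0.02), and 12 rose and 1 fell with ZFX12_13 (median 0.22, against -0.01). UXS1, which makes UDP-xylose, had 251 ± 7.1 CPM in siControl and 89.1 ± 1.0 in siZFX, a log2 change of -1.49 (SE 0.06, adjusted p = 7.54e-14). GALK1, the galactokinase, fell to 23.0 ± 5.8 CPM from 58.4 ± 6.3 in the double knockdown, by 1.34 on the log2 scale, or by 1.16 without replicate 3. The glycogenin GYG2 rose from 30.4 ± 1.1 to 61.0 ± 3.8 CPM with ZFX12_13.

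In the pentose phosphate and nucleoside list, next to PGM2 by substrate, 0 of 18 rose and 9 fell with siZNF593 (median -0.29, against 0.02), and 2 rose and 11 fell in the double knockdown (median -0.42, against 0.01), or 2 and 10 without its replicate 3. With siZFX 2 rose and 4 fell (median -0.04, against 0.02), with wtZFX 6 rose and 4 fell (0.09, against -0.02), and with ZFX12_13 5 rose and 4 fell (0.09, against -0.01). TKT, the transketolase, went opposite ways in the single knockdowns: it had 1208 ± 17 CPM in siControl, 1743 ± 68 in siZFX and 421 ± 18 in siZNF593. RPIA, which makes ribose phosphate, fell with siZFX (34.2 ± 2.8 to 15.5 ± 2.6 CPM). ADA, adenosine deaminase, fell in the double knockdown (14.3 ± 2.0 to 5.20 ± 0.78 CPM, -1.46 on the log2 scale, or -1.52 without replicate 3) and rose with wtZFX (8.45 ± 0.62 to 15.8 ± 1.3 CPM) and ZFX12_13 (16.0 ± 2.4 CPM).

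The glycolysis enzymes in the glucose bisphosphate list, several of which that metabolite is known to affect, had 8 of 20 higher and 2 lower with siZFX (median 0.15, against 0.02), 4 higher and 7 lower with siZNF593 (median -0.06, against 0.02), and 3 higher and 7 lower in the double knockdown (median 0.07, against 0.01). Without replicate 3 of the double knockdown the last counts were 5 and 5. With wtZFX 2 were higher and 5 lower (median -0.03, against -0.02), and with ZFX12_13 3 and 3 (-0.02, against -0.01). PFKL, the liver type phosphofructokinase, fell with siZFX (93.1 ± 3.1 to 61.6 ± 0.9 CPM) and in the double knockdown (116 ± 2.8 to 52.9 ± 8.6 CPM, -1.13 on the log2 scale, or -1.0 without replicate 3). The control sets differed for PFKL, with siControl_2 0.31 above siControl (adjusted p = 0.0226, edgeR's test), so the size of the second fall depends on the control set. PFKFB3 fell to 77.8 ± 4.9 from 175 ± 1.4 CPM with siZNF593. PFKFB2 rose in both knockdowns of ZFX (0.75 and 0.69, the latter also without replicate 3) and fell with both constructs (-0.41 and -0.46), the directions seen for PGM2L1. HK1, a hexokinase that glucose bisphosphate inhibits, rose with wtZFX (0.53, SE 0.04, adjusted p = 6.72e-10) and ZFX12_13 (0.46).

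In the UDP-GlcNAc list, which holds the partners of PGM3, 5 of 21 rose and 3 fell with siZFX (median 0.14), 7 rose and 3 fell with siZNF593 (-0.08), and 8 rose and 2 fell in the double knockdown (0.21), with the same counts without its replicate 3. With wtZFX 5 rose and 7 fell (-0.09), and with ZFX12_13 7 rose and 5 fell (-0.04). GFPT2, which feeds this pathway, rose from 14.9 ± 1.1 CPM to 74.0 ± 2.3 with wtZFX and 28.6 ± 3.7 with ZFX12_13, and the constructs differed by 1.37 (adjusted p = 6.78e-12). OGA, which removes protein GlcNAc, rose with siZFX (93.6 ± 1.9 to 157 ± 5.4 CPM). UAP1, the step after PGM3, fell with siZFX (-0.34) and siZNF593 (-0.46). In the GDP-mannose list, which holds the partners of PMM1 and PMM2, 4 of 23 rose and 4 fell with siZFX (median 0.11), 2 rose and 4 fell with siZNF593 (-0.06), and 2 rose and 6 fell in the double knockdown (-0.06), or 2 and 4 without its replicate 3. With wtZFX 4 rose and 5 fell (-0.09), and with ZFX12_13 5 rose and 5 fell (-0.04). GMPPB, which makes GDP-mannose, fell in the double knockdown (-0.47, or -0.38 without replicate 3). The GDP-fucose transporter SLC35C1 rose with wtZFX (0.73) and ZFX12_13 (1.18).

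Around PGM2L1, 19 genes lie within 250 kilobases and 6 had enough counts. With siZFX none of these rose and 2 fell, PPME1 (-0.17, adjusted p = 0.0464) and LIPT2 (-1.27, adjusted p = 0.00128). Of all genes 13.8% were called higher and 17.1% lower there. None was called with siZNF593 (12.2% and 14.6% of all genes) or in the double knockdown (17.6% and 20.6%). In DKO cells LIPT2 and AP001372.2 rose with wtZFX (0.81 and 0.89), and C2CD3 and POLD3 fell (-0.64 and -0.31), where 23.2% of all genes were called higher and 19.2% lower. C2CD3 and POLD3 also fell with ZFX12_13 (-0.64 and -0.32), the direction of PGM2L1, and AP001372.2 rose (0.97). There 20.9% of all genes were called higher and 15.7% lower. With 6 genes these counts say little against the background.

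The protein-coding genes whose log2 CPM followed PGM2L1 most closely over the 15 LN-229 libraries, of 10628 compared, were RUBCN (r = 0.979), PLCD4 (0.974), CLCN3 (0.973), SGPL1 (0.973) and TIPARP (0.970). The libraries share treatments and PGM2L1 was chosen on its values in them, so these values describe likeness only. Over the 9 DKO libraries r with PGM2L1 was 0.944 for CLCN3, a chloride and proton exchanger, and 0.85 for TIPARP, an ADP-ribosyltransferase. For RUBCN, PLCD4 and SGPL1 it was 0.264, 0.183 and -0.33. CLCN3 had 132 ± 3.3 CPM in siControl, 182 ± 5.8 in siZFX, 159 ± 7.9 in siZNF593, 164 ± 1.7 with pCMV6 and 120 ± 3.2 with wtZFX. The list itself was not stable: leaving out replicate 1, 2 or 3 of every group kept 1, 3 and 1 of the 5 among the first 5. Within the family, r with PGM2L1 was -0.79 for PGM1, -0.83 for PMM1 and 0.84 for PGM2 in LN-229, and -0.59, -0.85 and 0.43 in DKO cells. For PGM3, PGM5 and PMM2 it was -0.54, -0.34 and -0.27 in LN-229, and -0.90, -0.47 and 0.94 in DKO cells. The sign thus differed between the lines for PMM2, which had the largest r in DKO cells.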

How the data were processed

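RNA-seq of 24 libraries was analysed from the per-gene counts that the authors deposited, with 1 unstranded and 2 stranded columns as STAR writes them. Per the submitters' processing notes, hg38 (GRCh38) was used with STAR, HTSeq and DESeq2, without versions, and the kit is NEBNext Ultra II per the labels' protocols. All 58721 identifiers matched GENCODE 29. The unstranded counts were used, since both strands held near-equal counts; rows that name no gene were left out, and 71.0% to 80.5% of reads were on genes.

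LN-229 and DKO libraries were fitted separately in R 4.3.3 by the robust quasi-likelihood test of edgeR 4.0.16, with TMM factors, filterByExpr and Benjamini-Hochberg adjustment over all tested genes at 0.05. Standard errors were taken as the size of the log2 change divided by the root of the F statistic. The 95% intervals used these with the normal distribution and are narrower than the quasi-likelihood test implies. That of PMM2 with wtZFX (-0.346 to -0.00091) left out 0 at an unadjusted p of 0.0607 in that test. CPM are over TMM-scaled totals, as mean ± SD of 3 libraries. Biological variation between replicates (edgeR's BCV) came to 11.2% for LN-229 and 5.26% for DKO cells. The script was tested on simulated data. The members and lists were chosen with earlier results of these data known.

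Named were all members, from each list and comparison with a control the called genes of largest rise and fall (mean of at least 5 CPM, no overlap), of which part is described (single values of some are not reported here), the 5 genes most like PGM2L1 (pseudocount 1), neighbours within 250 kilobases, and overlapping genes. Same-numbered libraries showed little shared variation. Their deviations had a median correlation of 0.014 in LN-229 (from -0.16 to 0.23) and 0.0206 in DKO cells (from -0.087 to 0.063). This cannot show that the libraries were not made in pairs. The alternatives were DESeq2 1.42.0, RLE or upper-quartile factors, no filter or one of 1 CPM in 3 libraries, a fit of the contrast's groups alone, a replicate block, stranded columns, GC and length offsets, each library left out, and other control sets. Protein sequences were not used here.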

Additional observations from a re-analysis of the deposited data

How the results depend on the processing

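The members' log2 differences were recomputed 1449 times. Of these, 1371 kept their call or lack of one (for PGM2L1 in LN-229, stayed within 1 SD with the same sign). Calls were lost in 36 and gained in 27, and 12 values moved by over 1 SD. Another 3 changed sign, 2 for PGM1 with a call in either fit and 1 for PGM2L1 in LN-229. Changes of sign with no call in either fit are among the 1371. For PGM1 in the difference from siZFX, -0.15 became 0.25 with all 6 controls as 1 group. For the named pathway genes 1171 of 1207 values kept direction and call, 36 lost the call and none changed sign. With siControl in place of siControl_2, the double knockdown stood at 1.92, its difference from siZFX at -0.37, from siZNF593 at 0.46 and from the sum at -1.83, PGM1 changed sign to 0.25 in the difference from siZFX, and 2 members were called there. With all 6 controls as 1 group, PGM2L1 stood at 2.42 for siZFX and 1.59 for siZNF593, and its differences of the double knockdown at -0.37, 0.46 and -1.96; PGM1 changed sign to 0.47 in the difference from the sum. Members called were then 5 for siZFX, 1 for the difference from siZNF593 and 1 for the difference from the sum.

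With the larger stranded column 4 members were called for siZFX, 1 for siZNF593, 5 between siZFX and siZNF593 and 3 for ZFX12_13. With GC and length offsets 4 were called for siZFX, 2 between the control sets and 3 for ZFX12_13. With only the groups of the contrast 5 were called for siZFX and 2 between the control sets. More of all genes were called there too, as they were between the control sets with the offsets. Except for the counts given below, shares over all genes under the settings of this section are not reported here. The members' counts under these settings thus cannot be set against that background. The added calls for siZFX were among PGM2, PGM3 and PGM5; the cause was not tested.

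Without 1 library at a time, PGM2L1 ranged from -0.22 to 0.019 in the difference from siZFX (0.019 without replicate 1 of the double knockdown) and from -1.67 to -1.41 in that from the sum. Members called ranged from 1 to 2 for siZFX (1 without replicate 3 of siControl), 3 to 5 for ZFX12_13 (3 without replicate 3 of pCMV6), 0 to 1 for the difference from siZFX (1 without replicate 1 or 2 of the double knockdown) and 1 to 4 for that from siZNF593 (1 without replicate 3 of siZNF593 or replicate 2 of siControl_2). Of the 5 genes most like PGM2L1, 1 to 3 stayed without 1 replicate number.

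With the replicate block, PGM2L1 stood at 2.29, 1.46 and 2.19 in the knockdowns and at -0.44 and -0.36 with the constructs, and among members the block ended only the call of PMM1 in the difference from siZNF593 (2 of 6 called). The ratio of PGM2L1 to PGM2 stayed within 1 SD with stranded columns summed, whereas 45 of 56 member levels rose or fell by more than 1 SD. Counts over all genes moved by over 1.5 times mostly in the differences of the double knockdown. That from the sum went from 680 higher and 320 lower to 1607 and 1056 with siControl, 1689 and 1161 with all 6 controls and 1271 and 648 with GC and length offsets. It was 1334 and 713 without replicate 3 of the double knockdown, 441 and 165, 405 and 146, and 501 and 156 without replicate 1, 2 or 3 of siControl, and 589 and 211, and 591 and 198, without replicate 1 or 2 of siZFX. The difference from siZFX went from 1550 and 1587 to 3006 and 3103 with siControl and 2582 and 2710 with all 6 controls, and that from siZNF593 from 1409 and 1520 to 2618 and 2647 with siControl and 2170 and 1828 with the offsets. Between the control sets, 961 and 863 became 1831 and 1869 with only those groups fitted, 1520 and 1617 with the offsets, and 658 and 564, 677 and 564, and 616 and 588 without replicate 1, 2 or 3 of siControl. For siZFX, 2439 and 3025 became 3775 and 4224 with only its groups fitted. PGM5 rests on few counts in LN-229.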
